A study of Mus musculus with 12 samples.

Results

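SOX2-ON cells, in which SOX2 is kept on while WNT signalling is activated, were compared with the wild-type caudal epiblast-like cells (CEpiLCs) that arise under the same medium and lower their SOX2. The comparison was chosen by the sample labels alone and covers 6 of the 12 libraries in the series, 3 of SOX2-ON and 3 of CEpiLC, each labelled as a biological replicate, over all genes in the table. Both groups were mouse embryonic stem cells (ESCs) taken to 72 h in N2/B27 medium with 10 ng/ml bFGF and 5 µM LGK974, an inhibitor of WNT secretion, with CHIR99021 (CHIR), a GSK3 inhibitor that activates WNT signalling downstream of the ligand, added from day 2 to day 3. CEpiLCs came from the wild-type HM1 TetON line, an XY line, without doxycycline. SOX2-ON cells came from the SOX2 TetON line derived from it, labelled Sox2-/-, with 1 µg/ml doxycycline maintained throughout. The rtTA activator at Rosa26 was already in the HM1 TetON line and is therefore in both groups. The SOX2 TetON line also carries a doxycycline-inducible Sox2 cDNA in the Hprt locus, its endogenous Sox2 was ablated with CRISPR, and it is a picked clone. The cell line, the clone and doxycycline therefore differ between SOX2-ON and CEpiLC together with SOX2, and in this comparison they cannot be told apart. For that reason 3 libraries of the same SOX2 TetON line under CHIR with doxycycline withdrawn during differentiation (SOX2-OFF), and 3 of the wild-type line without CHIR (EpiLC), are set beside the values. SOX2-ON and SOX2-OFF share the line, but doxycycline still differs between them together with SOX2, and the 2 cannot be told apart there. SOX2-ON and EpiLC differ in line, doxycycline and CHIR. The comparisons with SOX2-OFF share the SOX2-ON or the CEpiLC libraries, so their values are given side by side and are not independent of each other.

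SOX2 is an HMG-box transcription factor that pairs with OCT4 (Pou5f1) in pluripotent cells and is one of the factors that hold the naive and primed epiblast states. At gastrulation WNT signalling, read out in the nucleus by β-catenin and the TCF/LEF factors, induces the primitive streak, from which mesoderm and endoderm leave, and the caudal epiblast, whose cells express Cdx and Hox genes and supply both the spinal cord and the trunk mesoderm. In the caudal epiblast SOX2 falls to a lower level as these genes come on. The question that the comparison addresses is what the WNT-activated cell transcribes when that fall does not take place.

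The coding sequence of the transgene was changed from the reference at 1 base, and the stretch is shown because it separates the transgene from the unedited gene. The endogenous Sox2 of the SOX2 TetON line was itself edited with a guide against this site, and its edited sequence is not shown. The silent change is G54A, counted from the first base of the coding sequence, in codon 18, which reads TCG in the reference and TCA in the transgene, serine in both. In the mouse reference (GRCm38, Sox2, the single coding exon, plus strand, chr3:34650455-34650481) the bases around it are given below with the changed base in capitals.
reference Sox2: ccgcagcaagcttcGgggggcggcggc
transgene Sox2: ccgcagcaagcttcAgggggcggcggc
The study's guide oligo against Sox2 shares a run of 17 bases with the gene at chr3:34650451-34650467, and the next 3 bases (capitals) hold the change, CGG in the reference and CAG in the transgene.
reference site: gggcccgcagcaagcttCGG
transgene at the site: gggcccgcagcaagcttCAG

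Sox2 itself stood at 215, 173 and 174 TPM (a level that is corrected for transcript length and library depth) in SOX2-ON 1 to 3, and at 13.7, 9.66 and 7.78 TPM in CEpiLC 1 to 3. The groups did not overlap, and the log2 fold change was 4.09 ± 0.23 (adjusted p = 2.85e-08). Every log2 fold change below is SOX2-ON minus the group named, with its SE, from 3 libraries against 3, and with the Benjamini-Hochberg adjusted p of edgeR's quasi-likelihood test over the 14196 genes tested; a gene is said to rise or fall where that p is at most 0.05, and where 3 sets of TPM values follow each other they are of SOX2-ON, CEpiLC and SOX2-OFF unless another order is given. SOX2-OFF held 21.2, 15.9 and 12.3 TPM. EpiLCs, the wild-type cells taken to the same 72 h without CHIR, held 171, 119 and 121 TPM. Against SOX2-OFF the log2 fold change was 3.44 ± 0.22, whereas the difference from EpiLC was 0.42 ± 0.19 (adjusted p = 0.0711) and did not pass. Hprt, the locus that holds the transgene, stood at 21.1, 23.3 and 15.7 TPM in SOX2-ON and 1.57, 2.00 and 1.35 TPM in CEpiLC, a log2 fold change of 3.55 ± 0.24 (adjusted p = 1.20e-07); it was at 13, 17.8 and 14.6 TPM in SOX2-OFF and did not pass the test there (log2 fold change 0.35 ± 0.19, adjusted p = 0.199). A gene-level value adds up all transcripts assigned to the gene, so transgene and edited endogenous transcripts of Sox2 cannot be told apart in it.

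The libraries held between 10408252 (CEpiLC 3) and 27337740 (CEpiLC 1) expected counts, with 17557433 to 18658135 in SOX2-ON. Between SOX2-ON and CEpiLC 8020 of the 14196 genes passed the test (56.5%), 3958 higher (27.9%) and 4062 lower (28.6%), and with a log2 fold change over 1 as well 1116 were higher (7.86%) and 1295 lower (9.12%). The 3 values of SOX2-ON lay above the 3 of CEpiLC in 29.6% of genes and below them in 30.3%. Against SOX2-OFF 14.8% of genes were higher in SOX2-ON and 14.1% lower, and SOX2-OFF against CEpiLC gave 23.6% higher and 24.9% lower. These shares are the background for every count of list members below. A further pattern runs through whole chromosomes. Over genes of at least 4 log2 CPM on average, the median log2 fold change from CEpiLC was 0.57 on chromosome 6, 0.59 on chromosome 8 and -0.55 on chromosome 11, and within -0.02 to 0.05 on the other autosomes. On chromosome 8 72.7% of genes tested rose, and on chromosome 11 73.5% fell. SOX2-OFF had the same medians against CEpiLC (0.57, 0.62 and -0.52), and between SOX2-ON and SOX2-OFF they were -0.01, -0.00 and -0.03. The chromosome is named below for genes whose change is near the size of the shift. Because these are bulk libraries, fewer cells of a type and less RNA per cell cannot be told apart in any of the values. CEpiLC 3 and SOX2-ON 3 stood apart from the other libraries of their groups for several mesoderm and endoderm genes, which is stated beside those genes.

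**Figure D1:**
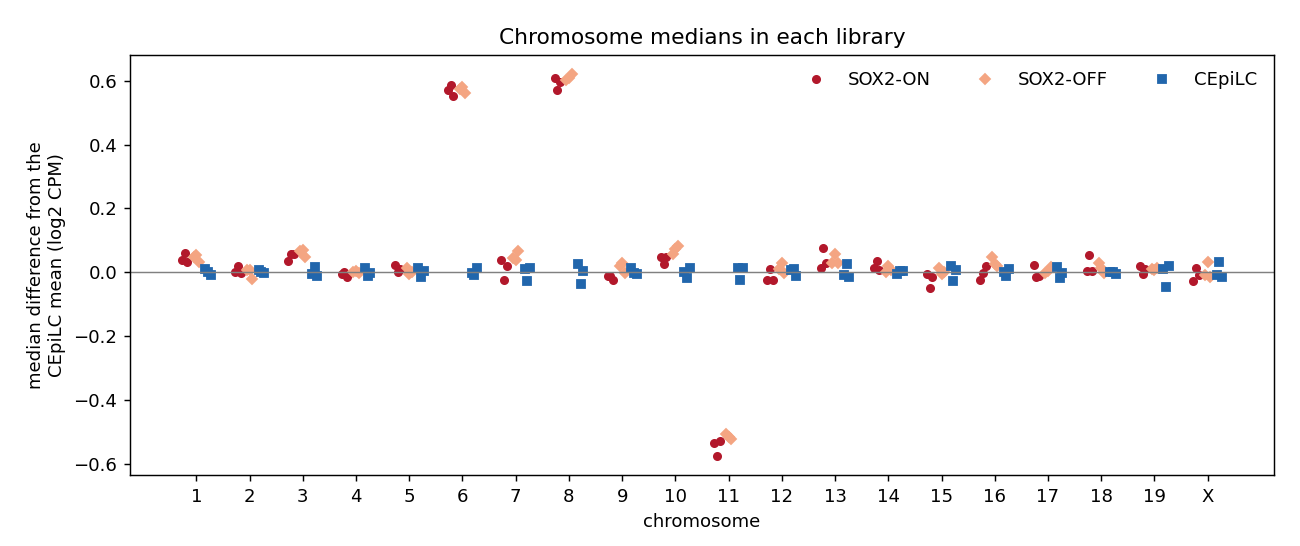
Median difference of each SOX2-ON, SOX2-OFF and CEpiLC library from the CEpiLC mean (log2 CPM), by chromosome, over genes of at least 4 log2 CPM on average; each point is 1 library. All 6 SOX2 TetON libraries sit above 0.5 on chromosomes 6 and 8 and below -0.5 on chromosome 11, and near 0 on the others plotted; Y, with 3 such genes, is left out.

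Beside Sox2, 3 further markers of the condition are given as a description. They were chosen with earlier results of these data known, so they are no check of the label. Nr5a2, a nuclear receptor of the naive network, was at 28.2, 23.6 and 32.5 TPM in SOX2-ON and 0.74, 0.52 and 0.60 TPM in CEpiLC. Dppa3, a chromatin protein of naive cells and germ cells, was at 117, 146 and 105 TPM against 4.77, 4.43 and 2.80 TPM. Msgn1, a bHLH factor of the presomitic mesoderm, was at 0.27, 1.49 and 0.91 TPM against 64.5, 95.0 and 364 TPM. The 2 naive genes were high in all 3 SOX2-ON libraries and the mesoderm gene was low in all of them, and none of the 3 overlapped between the groups. Both groups held OCT4 (Pou5f1) at 705 to 1159.9 TPM, and trophoblast, fibroblast and 2-cell-like genes are given with the endoderm genes below.

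Of 12 naive pluripotency transcription factors listed, 11 passed the filter on low counts (Prdm14 did not), and all 11 rose against CEpiLC, where 27.9% of all genes rose, with a median log2 fold change of 2.89 against -0.01 over all genes tested. Tbx3, a T-box factor of naive cells, was at 11.2, 14.7 and 27.9 TPM in SOX2-ON and 0.22, 0.36 and 0.31 TPM in CEpiLC, a log2 fold change of 5.93 ± 0.38 (adjusted p = 7.12e-08). The groups were far apart, and SOX2-ON 3 was the highest library. Zfp42 (Rex1), a zinc-finger marker of the naive state, was at 58.0, 62.9 and 58.8 TPM against 7.25, 9.69 and 8.31 TPM (log2 fold change 2.80 ± 0.12, adjusted p = 5.71e-09). Tfcp2l1, a Grainyhead-family factor that sustains self-renewal, was at 14.1, 16.1 and 14.0 TPM against 6.49, 5.29 and 4.8 TPM (log2 fold change 1.37 ± 0.18, adjusted p = 2.78e-05). For both, the 3 SOX2-ON libraries lay close together and above every CEpiLC library. Klf4, a Krüppel-like factor, was at 8.88, 9.49 and 13.3 TPM against 2.01, 1.39 and 1.58 TPM (log2 fold change 2.6 ± 0.19, adjusted p = 2.10e-07). Nr0b1 (Dax1), an orphan receptor that binds Nr5a2 and OCT4, was at 8.42, 5.40 and 8.59 TPM against 0.54, 0.50 and 1.62 TPM (log2 fold change 3.22 ± 0.41, adjusted p = 2.24e-05). Both were higher in every SOX2-ON library, and the smallest rise of the list was that of Klf5 (log2 fold change 0.75 ± 0.20).

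Against SOX2-OFF, which shares the line, 7 of the 11 factors rose and none fell, where 14.8% of all genes rose; without SOX2-ON 3 Klf5 passed as lower, at -0.63. The members differed in what SOX2-OFF itself held. Nr5a2 was at 0.39, 0.41 and 0.34 TPM in SOX2-OFF, Tfap2c, an AP-2 factor of naive and germ cells, at 4.93, 3.80 and 2.06 TPM, and Tfcp2l1 at 6.55, 5.62 and 3.24 TPM. The first was below the CEpiLC values and the others overlapped them, and SOX2-ON was above both groups in every library. For Tfap2c the log2 fold changes were 3.52 ± 0.27 from CEpiLC and 3.02 ± 0.26 from SOX2-OFF. By contrast Tbx3 was at 10.0, 11.9 and 10.8 TPM and Klf4 at 7.83, 7.43 and 7.06 TPM in SOX2-OFF. SOX2-OFF alone was above CEpiLC by a log2 fold change of 5.28 ± 0.38 for Tbx3 and 2.15 ± 0.19 for Klf4, and the log2 fold changes of SOX2-ON from SOX2-OFF, 0.65 ± 0.25 and 0.45 ± 0.17, did not pass the test (adjusted p = 0.0693 and 0.0608); without SOX2-ON 1 that of Tbx3 was 0.89 and passed. Zfp42 was intermediate, at 30.0, 31.5 and 25.7 TPM in SOX2-OFF, with a log2 fold change from it of 0.99 ± 0.11.

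Effectors and markers of the naive state rose in most cases. Of 14 markers 11 rose and 2 fell against CEpiLC (median 1.61), and 11 rose and none fell against SOX2-OFF (median 1.90). Gdf3, a TGFβ-family ligand, was at 53.6, 53.3 and 39.7 TPM in SOX2-ON, 2.08, 3.20 and 1.97 TPM in CEpiLC and 2.77, 2.72 and 1.62 TPM in SOX2-OFF, which gave log2 fold changes of 4.29 ± 0.20 (adjusted p = 8.54e-09) and 4.27 ± 0.20 (adjusted p = 3.79e-08). The other groups overlapped each other and SOX2-ON stood clear of both. Tdh, the threonine dehydrogenase on which mouse ESCs depend for one-carbon units, was at 229.9, 197 and 218 TPM, 27.5, 25.8 and 26.2 TPM and 20.3, 17.0 and 19 TPM, with log2 fold changes of 2.98 ± 0.17 and 3.47 ± 0.17. Spp1, which codes for the secreted protein osteopontin, was at 93.9, 88.3 and 137 TPM, 9.25, 14.9 and 11.9 TPM and 51.1, 40.8 and 36.1 TPM (log2 fold change 3.13 ± 0.21, adjusted p = 1.15e-07). In all 3 genes every SOX2-ON library was above every library of the other groups. Tcl1, an AKT co-activator of naive cells, was at 5.13, 7.01 and 9.90 TPM against 0.07, 0.20 and 0 TPM in CEpiLC (adjusted p = 1.11e-06), where each library held 3 counts or fewer. The 2 markers that fell were Fgf4, the ligand through which ESCs leave the naive state, at 2.41, 2.39 and 1.12 TPM against 4.63, 5.83 and 13.3 TPM (log2 fold change -1.99 ± 0.40, adjusted p = 8.84e-04), and Alpl, alkaline phosphatase, whose log2 fold change of -0.42 ± 0.14 was -0.29 without CEpiLC 3 and -0.32 without SOX2-ON 3 and passed in neither case. Dppa5a, at 239, 245 and 244 TPM in SOX2-ON and 237, 282 and 212 TPM in SOX2-OFF against 38.9, 40.1 and 51.7 TPM in CEpiLC, was high in both SOX2 TetON groups; its counts are split with near-identical copies and are uncertain.

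**Figure D2:**
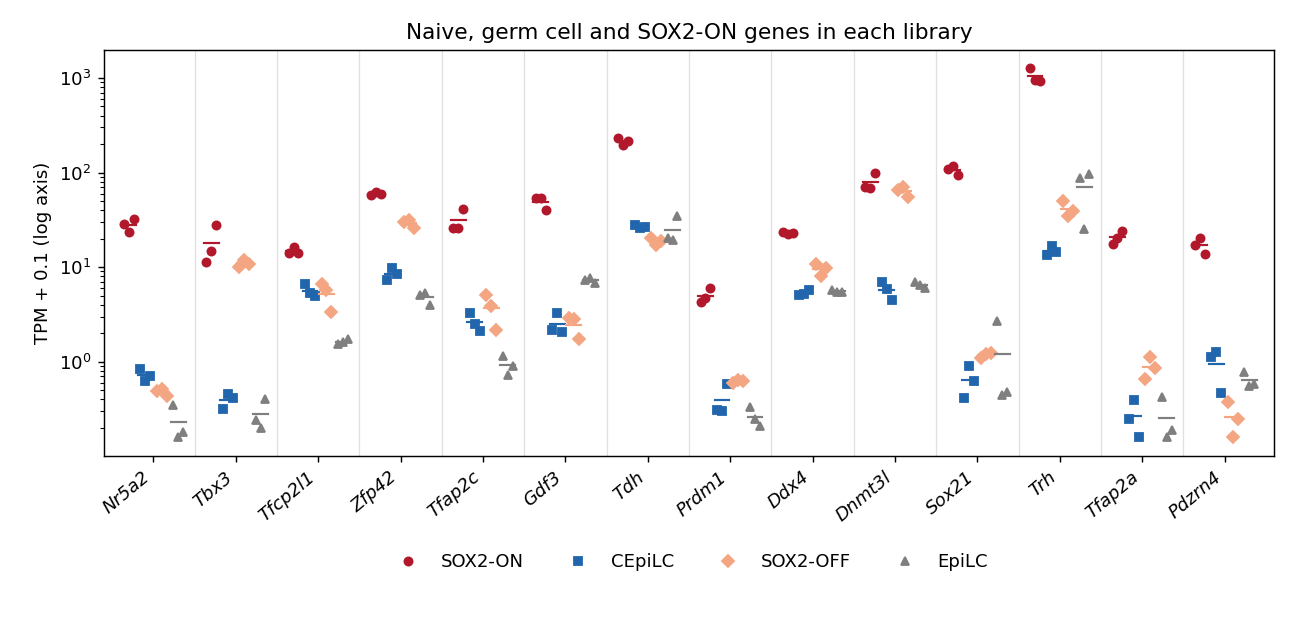
TPM + 0.1 on a log axis for 14 naive, germ cell and other genes; each point is 1 library, each bar the mean of a group of 3. SOX2-ON stands alone for Nr5a2, Tfap2c, Gdf3, Tdh, Prdm1, Sox21, Trh, Tfap2a and Pdzrn4, whereas SOX2-OFF reaches 10.9 ± 0.95 TPM for Tbx3 and 63.6 ± 7.95 TPM for Dnmt3l, near the SOX2-ON values.

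Genes of early germ cells were raised as well. Of 9 listed, 7 passed the filter on low counts (Prdm14 and Nanos3 did not). Among the 7 tested, Tfap2c and Dppa3 are also naive genes. Against CEpiLC 6 rose and none fell, and against SOX2-OFF 6 rose and 1 fell. Prdm1 (Blimp1), the repressor that founds the germ cell lineage, was at 4.15, 4.59 and 5.86 TPM in SOX2-ON, 0.21, 0.20 and 0.48 TPM in CEpiLC and 0.49, 0.54 and 0.53 TPM in SOX2-OFF, with log2 fold changes of 4.13 ± 0.28 (adjusted p = 1.25e-07) and 3.17 ± 0.26 (adjusted p = 2.60e-06). Kit, the receptor for stem cell factor, was at 37.2, 47.0 and 40.2 TPM against 23.5, 19.3 and 15.7 TPM and 12, 16.3 and 11.2 TPM, with log2 fold changes of 1.04 ± 0.17 and 1.59 ± 0.17. Both stood above every library of both groups. Ifitm3, a membrane protein of migrating germ cells, rose against CEpiLC and fell against SOX2-OFF, at 95.0, 90.4 and 90.3 TPM in SOX2-ON, 49.6, 63.1 and 50.3 TPM in CEpiLC and 269, 279 and 219 TPM in SOX2-OFF; its reads are partly shared with related genes. Dnd1, an RNA-binding protein, did not pass the test against CEpiLC (log2 fold change 0.14 ± 0.24, adjusted p = 0.641).

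Among genes of the later germline whose promoters are methylated in the soma, 11 of 16 were tested, 8 rose and 2 fell against CEpiLC, and 6 rose and 1 fell against SOX2-OFF. Under a stricter filter on low counts, which tested fewer of them, 4 rose. Ddx4 (Vasa), the RNA helicase of the germ line, was the most abundant of those that rose, at 23.3, 22.5 and 23.0 TPM in SOX2-ON, 4.93, 5.12 and 5.67 TPM in CEpiLC and 10.7, 7.98 and 9.76 TPM in SOX2-OFF (log2 fold change 2.10 ± 0.11, adjusted p = 2.33e-08, and from SOX2-OFF 1.23 ± 0.11, adjusted p = 4.15e-06). Its SOX2-ON libraries lay close together and above all others. Piwil2, a PIWI protein, was at 1.47, 1.39 and 1.53 TPM against 0.42, 0.38 and 0.37 TPM (log2 fold change 1.85 ± 0.21, adjusted p = 7.53e-06). Mov10l1, a helicase of the piRNA pathway, was at 1.90, 1.70 and 1.82 TPM against 0.29, 0.41 and 0.27 TPM (log2 fold change 2.42 ± 0.32, adjusted p = 2.91e-05). Rpl10l, a ribosomal protein gene of spermatogenesis, was at 4.63, 4.47 and 6.02 TPM against 0.41, 0.37 and 0.63 TPM (log2 fold change 3.44 ± 0.36, adjusted p = 3.89e-06). All 3 were separate from CEpiLC in every library. Sycp3, a synaptonemal complex gene, went the other way, at 15.7, 14.3 and 17.4 TPM against 43.4, 63.2 and 45.6 TPM (log2 fold change -1.71 ± 0.15, adjusted p = 9.81e-07).

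Of the enzymes that set and remove DNA methylation, Dnmt3l, a catalytically inactive partner of the de novo methyltransferases, had the widest difference. It was at 70.8, 69.4 and 98.2 TPM in SOX2-ON and 6.88, 5.82 and 4.37 TPM in CEpiLC (log2 fold change 3.71 ± 0.17, adjusted p = 8.54e-09), but also at 64.6, 71.0 and 55.2 TPM in SOX2-OFF, where the difference did not pass the test (log2 fold change 0.26 ± 0.14, adjusted p = 0.181). Dnmt3b, a de novo methyltransferase, was at 242, 244 and 180.1 TPM against 168, 158 and 108 TPM (log2 fold change 0.58 ± 0.15, adjusted p = 0.00519). Dnmt3a was at 22.9, 26.7 and 26.4 TPM against 36.4, 38.7 and 36.7 TPM (log2 fold change -0.56 ± 0.06, adjusted p = 6.49e-06). The 2 enzymes moved in opposite directions, both without overlap. EpiLCs held 1354 ± 152 TPM of Dnmt3b (mean ± SD, n = 3), above every SOX2-ON and CEpiLC library. Tet2, a methylcytosine oxidase, rose (log2 fold change 0.58 ± 0.14, adjusted p = 0.00307), whereas Dnmt1, the maintenance enzyme, did not pass the test (log2 fold change -0.09 ± 0.06, adjusted p = 0.23). Of the 9 enzymes 5 rose and 2 fell, and 3 rose without CEpiLC 3 or SOX2-ON 2.

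The gene that SOX2-ON raised most among those that differed from both CEpiLC and SOX2-OFF was a SOX gene. These genes were ranked by the smaller of the 2 log2 fold changes, so the values below chose them and are given as a description. Sox21, a SOXB repressor whose product counteracts SOXB1 factors in neural progenitors, was at 109, 116 and 93.6 TPM in SOX2-ON, 0.31, 0.80 and 0.53 TPM in CEpiLC, 0.99, 1.12 and 1.14 TPM in SOX2-OFF and 2.6, 0.35 and 0.38 TPM in EpiLC. SOX2-ON was the only group with more than 3 TPM in any library, and the log2 fold changes were 7.64 ± 0.45 from CEpiLC and 6.57 ± 0.42 from SOX2-OFF. Trh, the precursor of thyrotropin-releasing hormone, was at 1262, 962 and 921 TPM, against 13.2, 16.7 and 14.3 TPM in CEpiLC, 49.5, 34.5 and 39.0 TPM in SOX2-OFF and 86.8, 25.5 and 96.3 TPM in EpiLC. Tfap2a, an AP-2 factor of ectoderm and neural crest, was at 17.3, 20.5 and 23.8 TPM against 0.15, 0.29 and 0.06 TPM and 0.55, 1.03 and 0.76 TPM. Pdzrn4, a PDZ-domain ubiquitin ligase, was at 17.2, 20.4 and 13.6 TPM against 1.01, 1.16 and 0.37 TPM and 0.28, 0.06 and 0.15 TPM. In these 4 genes no SOX2-ON library came near the others.

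Nexmif, an X-linked gene of neuronal development, was at 14.0, 13.8 and 16 TPM in SOX2-ON, 1.16, 1.15 and 0.95 TPM in CEpiLC and 0.45, 0.41 and 0.42 TPM in SOX2-OFF, with a log2 fold change from CEpiLC of 3.69 ± 0.10. Insm1, a zinc-finger factor of neuroendocrine cells, was at 5.75, 6.4 and 7.76 TPM, 0.61, 0.49 and 0.31 TPM and 0.12, 0.32 and 0.23 TPM. Klhl4, a Kelch-family gene, was at 6.20, 7.43 and 10.9 TPM, 0.39, 0.73 and 0.99 TPM and 0.33, 0.11 and 0.31 TPM. EpiLCs held 6.47, 6.60 and 6.85 TPM of Insm1 and 8.84, 8.10 and 8.17 TPM of Klhl4. Here SOX2-ON did not differ beyond its spread from the wild-type cells without CHIR (log2 fold changes of -0.03 ± 0.18 and -0.07 ± 0.24, adjusted p = 0.89 and 0.809). Nexmif and Sox21, in contrast, had log2 fold changes from EpiLC of 3.61 ± 0.10 and 6.43 ± 0.41. Adm, which codes for the vasodilator peptide adrenomedullin, completed the group at 19.4, 14.9 and 32.0 TPM against 1.07, 2.11 and 3.37 TPM and 1.41, 0.60 and 0.83 TPM.

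Neural genes moved in both directions. Of 15 listed 13 were tested, 6 rose and 3 fell against CEpiLC, 7 rose and 1 fell against SOX2-OFF, and the summed level of the list was 170.9 to 230.3 TPM in SOX2-ON and 159.0 to 228.7 TPM in CEpiLC. The members that rose were below 6 TPM in SOX2-ON apart from Sox21. Zic1, a zinc-finger factor of the neural plate, was at 4.52, 5.02 and 4.45 TPM against 0.66, 0.56 and 1.04 TPM (log2 fold change 2.65 ± 0.31, adjusted p = 1.03e-05). Pax3, a paired-box factor of the neural plate border, was at 0.71, 1.51 and 1.96 TPM against 0.08, 0.09 and 0.11 TPM (log2 fold change 3.89 ± 0.48, adjusted p = 1.84e-05). Neurog2, a proneural bHLH factor, was at 1.79, 2.56 and 1.41 TPM in SOX2-ON and at 0 TPM in all 3 SOX2-OFF libraries, at least 7.44-fold higher. Its CEpiLC values were 0.36, 0.29 and 0.09 TPM (log2 fold change 2.71 ± 0.43, adjusted p = 2.41e-04). Pax6, a paired-box factor of the forming brain and eye, reached no more than 0.64 TPM in any SOX2-ON library. Nes, the intermediate filament nestin, fell, from 84.2, 128 and 119 TPM in CEpiLC to 25.8, 28.7 and 22.4 TPM (log2 fold change -2.15 ± 0.15, adjusted p = 1.61e-07), and Hes5, a Notch effector of neural progenitors, from 2.12, 2.14 and 4.35 TPM to 0.84, 0.91 and 0.20 TPM (log2 fold change -2.07 ± 0.48, adjusted p = 0.00236). Sox1, the earliest neural SOXB1 gene, did not pass the test, at 0.76, 1.26 and 0.29 TPM against 1.67, 2.11 and 0.18 TPM, and passed as lower without CEpiLC 3, with a log2 fold change of -1.31.

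Of 10 core pluripotency genes listed, one of them Sox2 itself, 8 rose and 2 fell against CEpiLC, and 3 rose and none fell against SOX2-OFF, where 5 rose in a fit of the 6 libraries compared. Pou5f1 (OCT4) was at 1159.9, 1079.6 and 985 TPM against 831, 993 and 705 TPM, with overlapping values and a log2 fold change of 0.30 ± 0.10 (adjusted p = 0.0214) that was 0.20 without CEpiLC 3 and 0.21 without SOX2-ON 1 and passed in neither case. Sall4, a zinc-finger partner of OCT4, was at 178, 193 and 189 TPM against 113, 109.9 and 112 TPM (log2 fold change 0.66 ± 0.08, adjusted p = 1.12e-05). Utf1, a chromatin factor of ESCs, was at 127, 89.7 and 155 TPM against 15.2, 14.6 and 19.1 TPM (log2 fold change 2.93 ± 0.20, adjusted p = 1.10e-07), and at 58.1, 43.2 and 47.3 TPM in SOX2-OFF and 229.9, 291 and 286 TPM in EpiLC. SOX2-ON therefore lay between CEpiLC and EpiLC, without overlap with either. The RNA-binding genes Lin28a and Lin28b, repressors of let-7 microRNAs, had log2 fold changes of -0.89 ± 0.09 and -0.77 ± 0.07 from CEpiLC, and their levels overlapped those of SOX2-OFF.

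Genes of the formative and primed epiblast, the state that EpiLCs model, moved in both directions. Of 12 listed, 5 rose and 3 fell against CEpiLC, with a median of 0.25. Pou3f1 (OCT6), a POU factor of the primed epiblast, was at 2.75, 1.57 and 1.79 TPM in SOX2-ON and 6.04, 5.28 and 2.40 TPM in CEpiLC, against 101, 85.7 and 109 TPM in EpiLC. Foxd3, a forkhead factor, was at 0.05, 0.05 and 0.20 TPM and 0.03, 0 and 0.08 TPM, against 11.9, 10.5 and 14.7 TPM in EpiLC. Both were low in SOX2-ON and CEpiLC alike and high in EpiLC, with log2 fold changes of SOX2-ON from EpiLC of -5.61 ± 0.29 and -6.93 ± 0.41. Sox3, the SOXB1 relative of SOX2, was at 11.3, 10.4 and 6.53 TPM in SOX2-ON, 26.9, 22.1 and 12.8 TPM in CEpiLC and 3.81, 3.13 and 2.20 TPM in SOX2-OFF, with log2 fold changes of -1.18 ± 0.25 (adjusted p = 0.00116) from CEpiLC and 1.55 ± 0.30 (adjusted p = 0.00176) from SOX2-OFF. The 3 groups did not overlap. Fgf5, the classic ligand of the primed epiblast, was at 4.98, 4.62 and 3.85 TPM against 2.34, 9.27 and 3.97 TPM and did not pass the test (adjusted p = 0.623); without CEpiLC 2 its log2 fold change went from -0.22 ± 0.36 to 0.56, and without CEpiLC 1 to -0.65, and it passed in both cases.

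In the primitive streak list no gene rose. Of 12 genes 9 fell against CEpiLC, where 28.6% of all genes fell, with a median of -2.70, and all 12 fell against SOX2-OFF, with a median of -3.21. Wnt3a, the WNT ligand of the posterior streak, was at 0.71, 1.14 and 0.86 TPM in SOX2-ON, 51.8, 48.1 and 75.9 TPM in CEpiLC and 9.52, 12.9 and 9.68 TPM in SOX2-OFF, a log2 fold change from CEpiLC of -6.05 ± 0.25 (adjusted p = 4.09e-09). Fgf8, the FGF ligand on which cell exit from the streak depends, was at 4.29, 4.95 and 2.58 TPM, 36.8, 67.3 and 82.2 TPM and 23.5, 34.1 and 21.3 TPM (log2 fold change -4.01 ± 0.33, adjusted p = 5.59e-07). Mixl1, a homeobox factor of mesendoderm, was at 3.55, 2.32 and 5.98 TPM, 24.6, 42.1 and 96.2 TPM and 157, 120.4 and 203 TPM (log2 fold change -3.78 ± 0.49, adjusted p = 2.75e-05). For all 3 genes every SOX2-ON library was below every library of both other groups, and the order of the other groups differed, CEpiLC being highest for Wnt3a and SOX2-OFF for Mixl1. Evx1, an even-skipped homeobox factor of the late streak, was at 13.6, 8.76 and 17.5 TPM against 47.9, 32.3 and 76.2 TPM (log2 fold change -2.0 ± 0.29, adjusted p = 6.40e-05). Lhx1, a LIM-homeobox factor of the organiser and lateral mesoderm, was at 0.43, 0.30 and 0.56 TPM against 1.38, 8.07 and 12.7 TPM (log2 fold change -4.06 ± 0.72, adjusted p = 3.30e-04). Nodal, the TGFβ-family ligand of the streak, did not pass the test against CEpiLC (17.5, 14.2 and 10.9 TPM against 7.98, 21.1 and 13.2 TPM, adjusted p = 0.987) and fell against SOX2-OFF, which held 65.8, 80.1 and 49.6 TPM (log2 fold change -2.25 ± 0.30).

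Beside EpiLC, the wild-type cells without CHIR, 9 of the 12 streak genes rose in SOX2-ON and none fell, with a median of 2.87. Of all 14196 genes tested, 4357 rose there. Among lists given below, 10 of 12 caudal epiblast genes rose from EpiLC and 1 fell. Of Hox genes tested, 12 of 13 in groups 1 to 5 and 12 of 12 in groups 6 to 13 rose. T (brachyury), among the 12 streak genes that fell against SOX2-OFF, was at 145, 138 and 172 TPM in SOX2-ON and at 0.68, 0.52 and 0.45 TPM in EpiLC. EpiLCs held 0.03, 0.04 and 0.05 TPM of Evx1 and 0.33, 0.12 and 0.42 TPM of Fgf8. Every SOX2-ON library was above every EpiLC library for these 3 genes. For Lhx1 the difference from EpiLC did not pass the test (log2 fold change 1.59 ± 1.26, adjusted p = 0.294), and Gsc, the organiser homeobox gene goosecoid, gave -0.95 ± 0.77 (adjusted p = 0.306) with 0.21, 0.33 and 0.45 TPM in SOX2-ON and 0.83, 0.79 and 0.14 TPM in EpiLC.

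The paraxial mesoderm genes had the lowest median of the 31 lists examined. Of 16 listed 15 were tested (Ripply2 was not). Of these 10 fell and 1 rose against CEpiLC, with a median of -3.63, and 7 fell and 1 rose against SOX2-OFF. Tbx6, the T-box factor that directs cells to paraxial mesoderm, was at 0.26, 0.50 and 0.36 TPM in SOX2-ON, 10.9, 23.6 and 86.2 TPM in CEpiLC and 9.46, 10.3 and 18.9 TPM in SOX2-OFF (log2 fold change -6.73 ± 0.85, adjusted p = 2.22e-05). Dll3, a Notch ligand of the segmentation clock, was at 7.25, 5.82 and 5.92 TPM, 65.1, 75.9 and 144 TPM and 45.0, 41.5 and 62.8 TPM (log2 fold change -3.93 ± 0.30, adjusted p = 2.77e-07). Rspo3, a secreted amplifier of WNT signalling, was at 5.34, 7.40 and 6.74 TPM, 47.3, 69.7 and 148 TPM and 32.7, 40.5 and 53.3 TPM (log2 fold change -3.79 ± 0.37, adjusted p = 2.52e-06). SOX2-ON was lowest in every library, and CEpiLC 3 was the highest library for each gene. Hes7, the oscillating repressor of the clock, was at 1.84, 1.98 and 4.61 TPM against 42.1, 32.3 and 115 TPM in CEpiLC (log2 fold change -4.51 ± 0.54, adjusted p = 1.41e-05) and overlapped the 2.63, 3.57 and 7.07 TPM of SOX2-OFF. Meox1, a homeobox factor of the somite, was listed at 0 TPM in all 3 SOX2-ON libraries and at 0.66, 0.59 and 0.69 TPM in CEpiLC, at least 4.11-fold lower. The member that rose was Mesp2, a bHLH factor of somite boundaries, at 0.81, 0.87 and 1.07 TPM against 0.31, 0.23 and 0.20 TPM (log2 fold change 1.76 ± 0.46, adjusted p = 0.00554). Pdgfra, the PDGF receptor of mesoderm and of primitive endoderm, did not pass the test, at 11.2, 15.5 and 28.6 TPM against 3.34, 6.33 and 17.4 TPM, and passed as higher without CEpiLC 3, with a log2 fold change of 1.94.

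Other genes were named by the size of their fall, so their values are a description. Cd36, a fatty acid and scavenger receptor, was at 0.36, 0.57 and 0.83 TPM in SOX2-ON, 5.34, 14.7 and 25.8 TPM in CEpiLC, 5.38, 5.66 and 7.49 TPM in SOX2-OFF and 0.03, 0.06 and 0.04 TPM in EpiLC (log2 fold change from CEpiLC -4.74 ± 0.52). Every SOX2-ON library was below CEpiLC and SOX2-OFF and above EpiLC for Cd36 (log2 fold change from EpiLC 3.63 ± 1.17, adjusted p = 0.0164). No EpiLC library held over 3 counts of it. Gbp2, an interferon-inducible GTPase, and its neighbour Gbp2b were at 0.62, 0.33 and 0.53 TPM and 0.84, 0.49 and 0.67 TPM in SOX2-ON against 4.67, 16.7 and 5.98 TPM and 3.51, 15.1 and 4.55 TPM in CEpiLC; CEpiLC 2 was the highest library for both, and the 2 genes are close copies. Gabra3, a GABA receptor subunit of the X chromosome, was at 0.31, 0.49 and 0.26 TPM in SOX2-ON, 14.4, 19.1 and 15.8 TPM in CEpiLC, 2.70, 2.80 and 1.68 TPM in SOX2-OFF and 7.19, 7.23 and 8.29 TPM in EpiLC (log2 fold change from CEpiLC -5.57 ± 0.23), and was lowest in SOX2-ON in every library.

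In lateral and vascular mesoderm 5 of 9 genes tested fell and 1 rose against CEpiLC, and 3 fell without CEpiLC 3 or without SOX2-ON 2. Etv2, the ETS factor that starts the endothelial lineage, was at 1.66, 1.15 and 0.52 TPM against 13.6, 16.7 and 9.38 TPM (log2 fold change -3.58 ± 0.37, adjusted p = 4.12e-06), and at 2.5, 3.45 and 1.16 TPM in SOX2-OFF, which overlapped SOX2-ON. Tal1, a bHLH factor of blood progenitors, was at 0.12, 0 and 0.05 TPM against 1.19, 2.02 and 0.43 TPM (log2 fold change -4.32 ± 0.69, adjusted p = 1.44e-04). Tbx4, a T-box factor of the allantois and hindlimb, was the member that rose, at 2.67, 2.98 and 4.72 TPM against 0.62, 0.67 and 0.43 TPM and 1.03, 0.97 and 1.23 TPM in SOX2-OFF (log2 fold change 2.5 ± 0.27, adjusted p = 4.70e-06, and from SOX2-OFF 1.64 ± 0.25, adjusted p = 3.22e-04).

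All 12 genes of the caudal epiblast list fell against CEpiLC, with a median of -1.72. Against SOX2-OFF 4 fell and 4 rose, with a median of -0.01, and in SOX2-OFF 10 of the 12 fell from CEpiLC as well. Wnt8a, a WNT ligand of the caudal epiblast, was at 15.1, 16.4 and 7.99 TPM in SOX2-ON, 270.1, 264 and 128 TPM in CEpiLC and 22.1, 24.8 and 17.4 TPM in SOX2-OFF (log2 fold change -4.10 ± 0.31, adjusted p = 2.72e-07, and from SOX2-OFF -0.76 ± 0.32, adjusted p = 0.0898). Fgf17, an FGF8-family ligand, was at 1.01, 1.23 and 1.03 TPM, 11.4, 10.4 and 18.2 TPM and 2.91, 3.79 and 2.98 TPM (log2 fold change -3.62 ± 0.32, adjusted p = 9.20e-07, and from SOX2-OFF -1.62 ± 0.34, adjusted p = 0.00331). Sp8, a zinc-finger target of WNT and FGF, was at 16.2, 17.0 and 14.0 TPM, 30.0, 33.3 and 32.6 TPM and 15.0, 17.9 and 14.7 TPM (log2 fold change -1.06 ± 0.13, adjusted p = 1.97e-05, and from SOX2-OFF -0.07 ± 0.13, adjusted p = 0.749). Both TetON groups were below CEpiLC in every library of these genes, and for Sp8 they overlapped. Gbx2, a homeobox factor of the posterior ectoderm, was at 75.2, 73.9 and 54.4 TPM, 158, 122 and 101 TPM and 20.5, 20.9 and 35.2 TPM. The log2 fold changes were -0.94 ± 0.23 from CEpiLC and 1.38 ± 0.24 from SOX2-OFF, and SOX2-ON was in the middle of 3 groups that did not overlap.

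Hox genes, which give cells their place along the body axis, were listed by their place in the cluster. Of groups 1 to 5, 13 of 15 genes were tested, and 12 fell and none rose against CEpiLC, with a median of -2.97. Hoxb1, the first gene of the B cluster, was at 1.60, 1.78 and 2.45 TPM in SOX2-ON, 84.2, 119 and 283 TPM in CEpiLC and 75.1, 75.6 and 128 TPM in SOX2-OFF (log2 fold change -6.41 ± 0.51, adjusted p = 4.40e-07). Hoxb4 was at 1.27, 1.18 and 2.55 TPM, 14.5, 8.83 and 22.6 TPM and 2.72, 2.17 and 4.8 TPM (log2 fold change -3.23 ± 0.43, adjusted p = 3.19e-05). SOX2-ON was below CEpiLC in every library of both genes, and below SOX2-OFF for Hoxb1 but not for Hoxb4, where the groups overlapped. Of this list 5 fell and none rose against SOX2-OFF. The B cluster lies on chromosome 11, and the falls are larger than the shift of that chromosome.

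Of Hox groups 6 to 13, 12 of 24 genes were tested, 6 fell and 3 rose against CEpiLC, and 4 rose and none fell against SOX2-OFF. Hoxb8 was at 3.4, 3.39 and 8.07 TPM in SOX2-ON, 59.8, 23.2 and 44.6 TPM in CEpiLC and 1.04, 0.91 and 1.01 TPM in SOX2-OFF. The log2 fold changes were -3.15 ± 0.35 (adjusted p = 7.30e-06) from CEpiLC and 2.27 ± 0.48 (adjusted p = 0.00328) from SOX2-OFF. Hoxb7 was at 3.38, 2.93 and 3.29 TPM, 34.5, 12.1 and 23.1 TPM and 0.62, 0.47 and 2.15 TPM (log2 fold change -2.90 ± 0.40, adjusted p = 4.11e-05, and from SOX2-OFF 1.67 ± 0.55, adjusted p = 0.0377). Both genes were lowest in SOX2-OFF, highest in CEpiLC and without overlap between any 2 groups; the difference of Hoxb7 from SOX2-OFF did not pass without any 1 of 5 libraries, down to 1.26 without SOX2-OFF 2. Hoxc13, at the other end of the C cluster, was at 1.53, 1.21 and 3.29 TPM against 0.09, 0.09 and 0.23 TPM in CEpiLC (adjusted p = 3.13e-05), where no library held over 3 counts, and at 1.74, 1.62 and 2.58 TPM in SOX2-OFF, so both TetON groups were above CEpiLC. Counts of these low genes moved with the setting, to 5 that rose against CEpiLC without CEpiLC 3 and 6 without SOX2-ON 1, and to 1 that rose against SOX2-OFF without SOX2-ON 3 or SOX2-OFF 1.

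**Figure D3:**
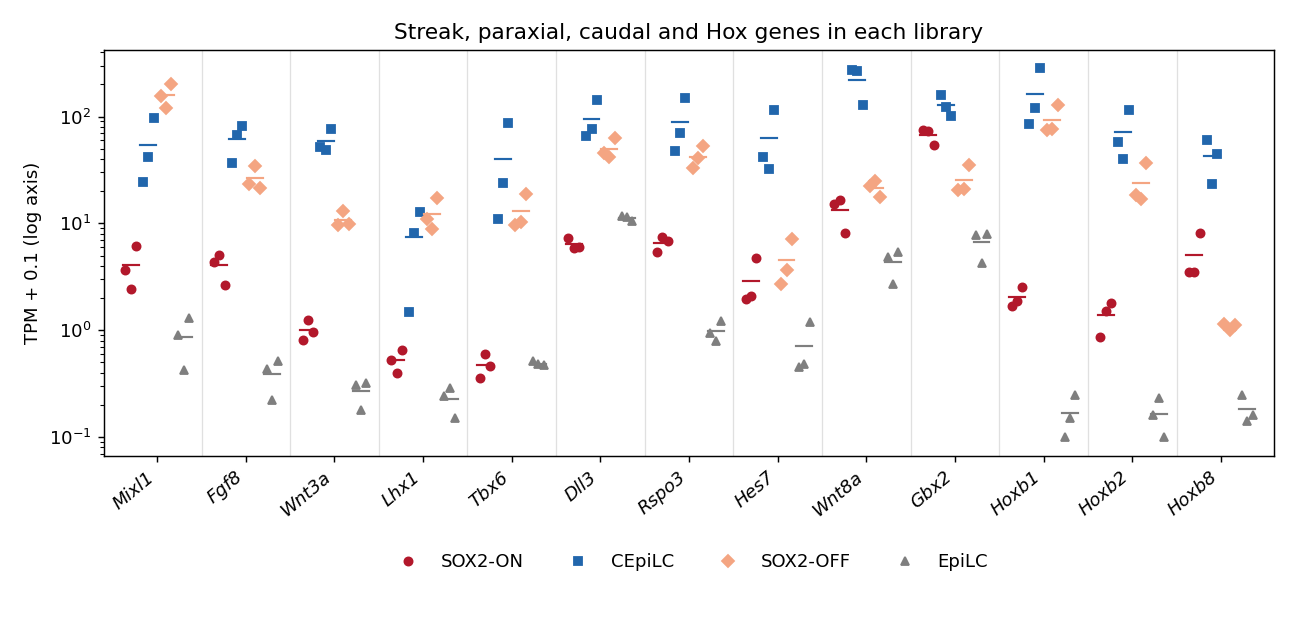
TPM + 0.1 on a log axis for 13 streak, paraxial, caudal and Hox genes; each point is 1 library, each bar the mean of a group of 3. SOX2-ON is below CEpiLC for every gene shown, below SOX2-OFF for Wnt3a, Tbx6, Dll3 and Hoxb1, and above SOX2-OFF for Gbx2 and Hoxb8.

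Of 12 feedback targets of the WNT pathway 11 were tested, 8 fell and 1 rose against CEpiLC, with a median of -0.70, and 6 fell and none rose against SOX2-OFF. Notum, a secreted enzyme that inactivates WNT ligands, was at 6.67, 6.04 and 6.15 TPM in SOX2-ON, 104, 63.9 and 39.0 TPM in CEpiLC and 14.6, 14.2 and 12.3 TPM in SOX2-OFF (log2 fold change -3.50 ± 0.28, adjusted p = 4.54e-07, and from SOX2-OFF -1.18 ± 0.29, adjusted p = 0.00799). Sp5, a direct target that represses TCF/LEF output, was at 56.9, 40.5 and 59.1 TPM, 205, 111 and 171 TPM and 123, 104 and 141 TPM (log2 fold change -1.67 ± 0.20, adjusted p = 1.45e-05, and from SOX2-OFF -1.28 ± 0.20, adjusted p = 4.04e-04). Znrf3, a ubiquitin ligase that removes WNT receptors, was at 9.08, 10.0 and 9.80 TPM, 18.9, 18.7 and 15.5 TPM and 16.5, 13.9 and 14.3 TPM (log2 fold change -0.94 ± 0.09, adjusted p = 1.32e-06). SOX2-ON was lowest in every library of the 3 genes. Notum and Znrf3 lie on chromosome 11, and with the chromosome shift removed their log2 fold changes from CEpiLC were -2.96 and -0.40 and still passed. Axin2, another of the list on that chromosome, fell from CEpiLC by -0.58 in log2 fold change. With the shift removed its value was -0.03 and did not pass. Dkk1, a secreted WNT antagonist, was the member that rose, at 9.95, 13.3 and 20.2 TPM against 2.45, 2.87 and 10.9 TPM (log2 fold change 1.54 ± 0.44, adjusted p = 0.00874), with overlapping values, and it fell against SOX2-OFF, which held 41.5, 44.3 and 60.3 TPM (log2 fold change -1.81 ± 0.39). EpiLCs held 0.05, 0.05 and 0.07 TPM of Sp5 and 0.79, 0.48 and 0.91 TPM of Notum, so every SOX2-ON library was above every EpiLC library for both.

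The nuclear partners of the pathway moved in both directions, 5 up and 5 down of 13 against CEpiLC. Tcf7l1 (TCF3), the TCF that represses targets in pluripotent cells, was at 52.5, 55.9 and 47.4 TPM in SOX2-ON, 14.8, 19 and 20.9 TPM in CEpiLC and 30.2, 30.6 and 32.6 TPM in SOX2-OFF (log2 fold change 1.49 ± 0.11, adjusted p = 2.72e-07, and from SOX2-OFF 0.69 ± 0.11, adjusted p = 3.93e-04). It lies on chromosome 6, and its log2 fold change from CEpiLC was 0.92 with the shift removed. Lef1, an activating member, was at 41.0, 39.5 and 36.3 TPM, 91.2, 98.6 and 129 TPM and 76.4, 69.3 and 87.7 TPM (log2 fold change -1.5 ± 0.15, adjusted p = 2.28e-06, and from SOX2-OFF -1.06 ± 0.15, adjusted p = 1.44e-04). Tcf7 (TCF1), the other activating member, was at 72.4, 67.9 and 71.6 TPM, 133, 121 and 133 TPM and 102, 95.7 and 98.6 TPM (log2 fold change -0.90 ± 0.07, adjusted p = 5.16e-07, and from SOX2-OFF -0.53 ± 0.07, adjusted p = 1.47e-04). Of the 3 groups SOX2-ON had the highest level of the repressing factor and the lowest of the activating ones, without overlap. Tcf7 is on chromosome 11, and its log2 fold change from CEpiLC was -0.36 and passed with the shift removed. Of the Groucho corepressors Tle1 and Tle4 rose and Tle3 fell, with log2 fold changes of 0.69 ± 0.12, 0.53 ± 0.08 and -0.58 ± 0.07. Bcl9, the adaptor that binds β-catenin, fell from 27.3, 29.5 and 28.2 TPM to 17.4, 19.5 and 17.1 TPM (log2 fold change -0.69 ± 0.06, adjusted p = 9.77e-07). Ctnnb1, β-catenin itself, was at 459, 459 and 433 TPM against 525, 499 and 502 TPM (log2 fold change -0.22 ± 0.05, adjusted p = 0.00393).

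Promoters of the genes above were searched for motifs of 7 bases on both strands, as a description of their sequence, in the RefSeq window from 250 bases before to 50 after each start site (GRCm38.p6). The motifs were AACAATG for SOX factors, CTTTGAT for TCF/LEF, TCACACC for T-box, TTTATTG for CDX and ATGCAAA for POU factors. Of all 32851 promoters of 27025 genes, 3.78% held the SOX motif, 3.73% TCF/LEF, 3.98% T-box, 4.60% CDX and 4.63% POU. Of 14077 promoters of 11004 genes tested here, 1.92% held the SOX motif, 2.52% TCF/LEF, 3.39% T-box, 2.35% CDX and 3.55% POU. The genes that rose by over 1 (1069 promoters of 825 genes) held them in 2.53%, 2.81%, 3.74%, 2.06% and 4.58%, and those that fell by over 1 (1166 promoters of 916 genes) in 2.14%, 3.00%, 4.63%, 3.00% and 4.89%. No test of these shares was made. The 3 promoters printed were chosen because they belong to genes of the lists and hold a match, in capitals; only the bases before the start site are shown, 5′ to 3′ in the direction of the gene. Msgn1 (chr12:11208949-11209198, minus strand) holds TCF/LEF on the reverse strand with its first base at -203 from the start site, Sp5 (chr2:70474673-70474922, plus strand) TCF/LEF at -104, and Nanog, the homeobox factor of the naive network (chr6:122707239-122707488, plus strand), POU on the reverse strand at -75. Nanog was at 116, 121 and 49.98 TPM in SOX2-ON, 10.9, 31.2 and 6.35 TPM in CEpiLC and 51.9, 68.0 and 31.7 TPM in SOX2-OFF (log2 fold change 2.51 ± 0.47, adjusted p = 5.16e-04).
Msgn1: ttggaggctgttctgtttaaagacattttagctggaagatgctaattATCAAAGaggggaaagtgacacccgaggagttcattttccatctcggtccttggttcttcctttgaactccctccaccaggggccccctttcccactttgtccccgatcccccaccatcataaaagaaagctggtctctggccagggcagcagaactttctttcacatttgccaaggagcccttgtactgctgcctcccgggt
Sp5: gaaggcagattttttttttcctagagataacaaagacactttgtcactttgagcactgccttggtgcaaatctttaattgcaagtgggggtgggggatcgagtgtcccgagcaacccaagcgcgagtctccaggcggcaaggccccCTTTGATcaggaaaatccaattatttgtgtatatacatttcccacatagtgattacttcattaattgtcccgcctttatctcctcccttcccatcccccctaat
Nanog: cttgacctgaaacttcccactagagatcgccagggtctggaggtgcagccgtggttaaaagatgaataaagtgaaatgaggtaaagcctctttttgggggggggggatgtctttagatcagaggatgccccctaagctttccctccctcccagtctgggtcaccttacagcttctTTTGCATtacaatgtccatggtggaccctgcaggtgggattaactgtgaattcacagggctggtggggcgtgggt
A match says only that the letters are there, and the windows of Nr5a2, Sox21, Tfap2a, Tbx6, T and Hoxb1 held none of the 5 motifs.

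Nodal pathway genes were mixed against CEpiLC, 2 up and 4 down of 11 tested, with 6 down against SOX2-OFF. Smad7, the inhibitory SMAD that TGFβ signals induce, was at 8.46, 8.14 and 6.63 TPM in SOX2-ON, 0.93, 1.51 and 1.55 TPM in CEpiLC and 4.31, 4.60 and 3.85 TPM in SOX2-OFF (log2 fold change 2.55 ± 0.21, adjusted p = 5.94e-07, and from SOX2-OFF 0.81 ± 0.19, adjusted p = 0.00613). Tdgf1 (Cripto), the Nodal co-receptor, was at 13.8, 16.5 and 8.19 TPM, 2.97, 18.9 and 13.9 TPM and 44.6, 50.3 and 46.6 TPM. It did not pass the test against CEpiLC, whose libraries spread over a wide range, and was below SOX2-OFF in every library (log2 fold change -1.93 ± 0.43, adjusted p = 0.00453). Foxh1, the DNA-binding partner of SMAD2, fell (log2 fold change -0.53 ± 0.09). The number that rose against CEpiLC was 4 without CEpiLC 2.

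Of the BMP pathway 6 of 14 genes rose and 4 fell against CEpiLC. Among ligands, Bmp7 was at 23.9, 23.4 and 23.5 TPM against 9.52, 10.3 and 14.0 TPM (log2 fold change 1.05 ± 0.13, adjusted p = 1.93e-05) and Bmp2 at 5.39, 3.87 and 10.4 TPM against 1.70, 1.88 and 2.00 TPM (log2 fold change 1.79 ± 0.32, adjusted p = 3.47e-04). Both overlapped their levels in SOX2-OFF, 24.8, 23.6 and 23.3 TPM and 5.33, 4.57 and 7.0 TPM. Among targets, Id2, an inhibitor of bHLH factors, was at 22.4, 23.0 and 34.2 TPM against 4.8, 5.97 and 2.74 TPM (log2 fold change 2.47 ± 0.29, adjusted p = 1.28e-05). Msx2, a homeobox target, was at 4.8, 6.92 and 12.3 TPM against 0.34, 0.51 and 0.79 TPM (log2 fold change 3.96 ± 0.40, adjusted p = 3.03e-06). Neither passed the test against SOX2-OFF (adjusted p = 0.117 and 0.314). Id3, another inhibitor of bHLH factors, was at 88.5, 87.2 and 120.0 TPM in SOX2-ON, 86.6, 63.6 and 54.2 TPM in CEpiLC and 20.3, 26.4 and 26.1 TPM in SOX2-OFF (log2 fold change 0.48 ± 0.17, adjusted p = 0.0257, and from SOX2-OFF 1.97 ± 0.18, adjusted p = 6.36e-06); the first did not pass without CEpiLC 2 (0.41), CEpiLC 3 (0.36) or SOX2-ON 3 (0.34). Nog, the secreted BMP antagonist noggin, was at 0.17, 0.06 and 0 TPM in SOX2-ON, 1.39, 3.86 and 4.01 TPM in CEpiLC and 2.64, 2.63 and 2.77 TPM in SOX2-OFF (adjusted p = 1.77e-05 and 8.40e-05), with no more than 3 counts in any SOX2-ON library.

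Of 22 genes of FGF signalling 10 rose and 6 fell against CEpiLC. Of the 6 ligands Fgf4, Fgf8, Fgf17 and Fgf18 fell and none rose; Fgf18, of chromosome 11, did not pass with the chromosome shift removed (-0.39). Among receptors, Fgfr2 was at 13.3, 16.4 and 17.6 TPM in SOX2-ON, 3.79, 4.24 and 1.65 TPM in CEpiLC, 4.81, 5.19 and 4.23 TPM in SOX2-OFF and 49.8, 43.4 and 29.0 TPM in EpiLC (log2 fold change 2.19 ± 0.26, adjusted p = 1.07e-05, and from SOX2-OFF 1.68 ± 0.25, adjusted p = 2.55e-04). SOX2-ON lay above CEpiLC and SOX2-OFF and below EpiLC. Of the inhibitors that FGF signals induce, Spry1 was at 21.7, 19.2 and 32.6 TPM against 10.3, 9.51 and 10.7 TPM (log2 fold change 1.24 ± 0.17, adjusted p = 3.91e-05). Spry2 was at 119, 117 and 176 TPM against 63.6, 59.0 and 89.2 TPM (log2 fold change 0.93 ± 0.18, adjusted p = 8.40e-04). SOX2-ON 3 was the highest library for both, and the groups did not overlap. Etv5, an ETS target of FGF, was at 138, 127 and 125 TPM against 86.1, 78.0 and 91.7 TPM and 76.7, 68.5 and 74.8 TPM in SOX2-OFF (log2 fold change 0.57 ± 0.10, adjusted p = 3.31e-04, and from SOX2-OFF 0.78 ± 0.10, adjusted p = 9.49e-05). Etv4, its relative, and Dusp6, the ERK phosphatase, did not pass the test against CEpiLC (adjusted p = 0.40 and 0.0555). Without CEpiLC 2 Etv4 passed at -0.51, and Dusp6 passed without CEpiLC 3 (0.78) or SOX2-ON 2 (0.63). Spred2, an inhibitor of RAF on chromosome 11, fell (log2 fold change -0.92 ± 0.08), and passed at -0.38 with the chromosome shift removed.

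Of 10 retinoic acid genes tested 8 fell and none rose against CEpiLC, with a median of -1.02; without SOX2-ON 1 Dhrs3, a retinal reductase, passed as higher, at 1.2. Crabp2, which carries retinoic acid to its receptor, was at 15.3, 21.4 and 14.2 TPM in SOX2-ON, 205, 225 and 271 TPM in CEpiLC, 71.7, 70.3 and 60.3 TPM in SOX2-OFF and 261, 263 and 217 TPM in EpiLC (log2 fold change -3.81 ± 0.16, adjusted p = 4.09e-09, and from SOX2-OFF -2.05 ± 0.16, adjusted p = 1.73e-06). SOX2-ON was the lowest of all 4 groups. Stra6, the retinol uptake receptor, was at 0.88, 0.50 and 1.25 TPM against 25.3, 11.7 and 5.82 TPM (log2 fold change -4.08 ± 0.50, adjusted p = 1.65e-05). Aldh1a2, the enzyme that makes retinoic acid in the mesoderm, was at 1.80, 1.46 and 2.07 TPM against 11.2, 16.3 and 104 TPM (log2 fold change -4.63 ± 0.79, adjusted p = 2.42e-04); CEpiLC 1 was the highest library for the first and CEpiLC 3 for the second. Of the receptors, Rarg fell (log2 fold change -0.81 ± 0.12, adjusted p = 1.05e-04), and Rara, of chromosome 11, went from -0.46 ± 0.10 to 0.08 with the chromosome shift removed. Cyp26a1, which degrades retinoic acid, was at 0.51, 0.41 and 1.18 TPM in SOX2-ON, 1.01, 2.45 and 10.7 TPM in CEpiLC and 27.7, 29.8 and 54 TPM in SOX2-OFF. It was far below SOX2-OFF (log2 fold change -5.78 ± 0.80, adjusted p = 1.55e-04), and its fall from CEpiLC of -2.56 ± 0.94 did not pass without CEpiLC 3 (-1.26), SOX2-ON 1 (-2.38) or SOX2-ON 2 (-2.29).

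Of 18 adhesion and epithelial-mesenchymal transition genes 4 rose and 9 fell against CEpiLC, and 9 fell and none rose against SOX2-OFF. Cdh2, N-cadherin, was at 35.5, 35.7 and 48.9 TPM in SOX2-ON, 87.3, 88.5 and 140.3 TPM in CEpiLC, 92.6, 70.1 and 126 TPM in SOX2-OFF and 42.8, 28.9 and 34.5 TPM in EpiLC (log2 fold change -1.43 ± 0.24, adjusted p = 2.06e-04, and from SOX2-OFF -1.32 ± 0.24, adjusted p = 0.00109). Its SOX2-ON values overlapped EpiLC and lay below both other CHIR groups. Snai1, a repressor of E-cadherin, was at 7.35, 4.64 and 7.43 TPM, 15.3, 21.6 and 56.1 TPM and 28.1, 27.1 and 53.1 TPM (log2 fold change -2.25 ± 0.47, adjusted p = 0.00121, and from SOX2-OFF -2.52 ± 0.47, adjusted p = 0.00137). Zeb2, another, was at 3.80, 5.30 and 2.73 TPM, 13.1, 13.9 and 11.5 TPM and 6.56, 5.70 and 7.83 TPM (log2 fold change -1.75 ± 0.21, adjusted p = 1.62e-05). Cdh1, E-cadherin, was at 429, 423 and 436 TPM against 235, 278 and 223 TPM (log2 fold change 0.77 ± 0.09, adjusted p = 1.44e-05), but it lies on chromosome 8, and with the chromosome shift removed its log2 fold change was 0.17 and did not pass. The claudins of tight junctions moved apart. Cldn6 was at 225, 197 and 217 TPM against 76.7, 77.7 and 76.9 TPM (log2 fold change 1.43 ± 0.11, adjusted p = 3.35e-07). Cldn4 was at 32.1, 25.9 and 36.0 TPM against 62.0, 86.8 and 74.3 TPM and 225, 206 and 189.8 TPM in SOX2-OFF (log2 fold change -1.28 ± 0.14, adjusted p = 6.75e-06, and from SOX2-OFF -2.78 ± 0.14, adjusted p = 7.99e-08). Fn1, fibronectin, had a log2 fold change from CEpiLC of -0.80 ± 0.31, which was -0.16 without CEpiLC 3 and did not pass without CEpiLC 3 or any 1 SOX2-ON library. From SOX2-OFF it was -2.02 ± 0.32 (adjusted p = 4.39e-04).

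**Figure D4:**
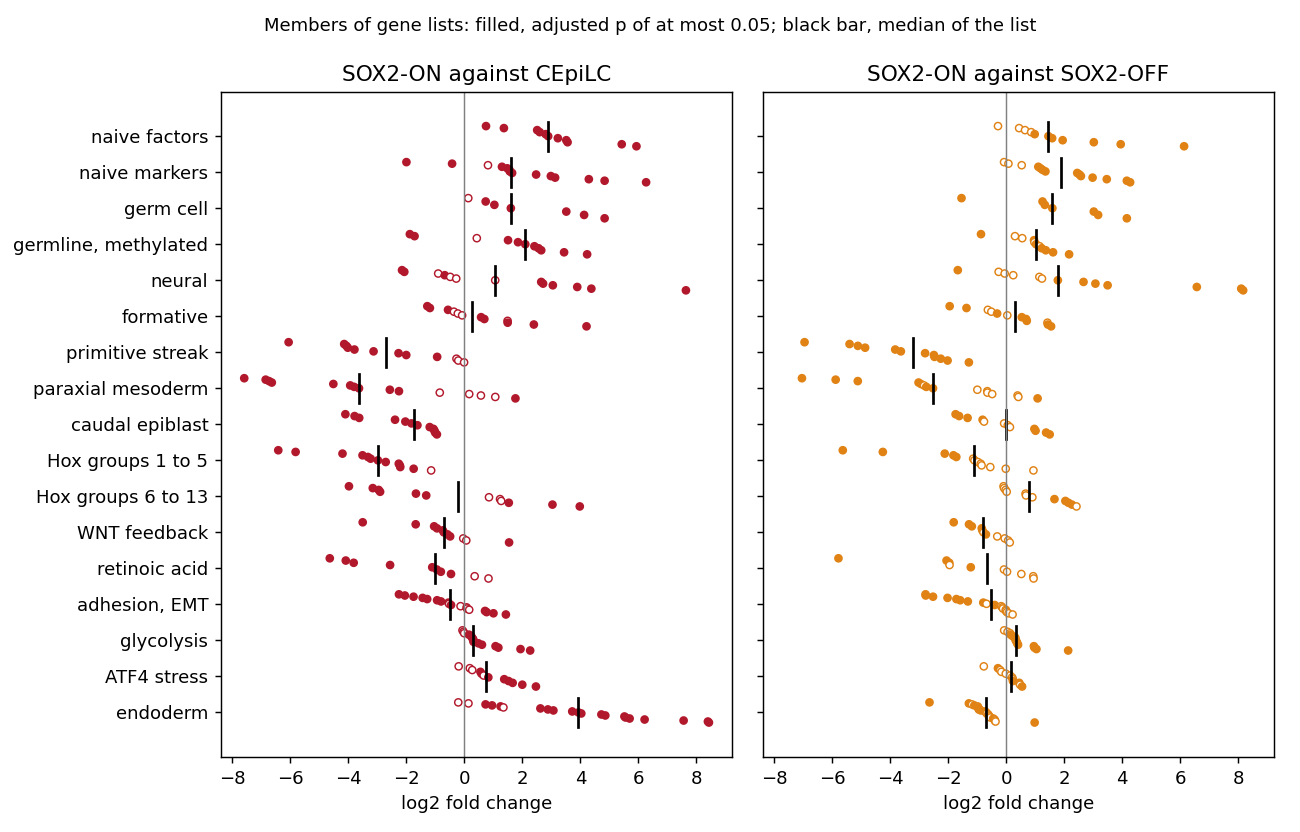
Log2 fold changes of tested members of 17 gene lists, SOX2-ON against CEpiLC on the left and against SOX2-OFF on the right; each point is 1 gene, filled where its adjusted p is at most 0.05, and the black bar is the median of the list. Fitted values of genes near 0 counts in 1 group are no bounds. The naive factors sit above 0 on the left (median 2.89) and the streak, paraxial and caudal lists below it (medians -2.70, -3.63 and -1.72); endoderm is high on the left (3.93) and slightly below 0 on the right (-0.68).

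The endoderm genes had the highest median of all lists against CEpiLC, and most were high in SOX2-OFF too. Of 23 listed 21 were tested, 18 rose and none fell against CEpiLC, with a median of 3.93, and 20 rose in SOX2-OFF. Between SOX2-ON and SOX2-OFF 1 rose and 9 fell, and the latter number was 2 without SOX2-ON 1, SOX2-ON 2 or SOX2-OFF 2, 4 without SOX2-OFF 3 and 19 without SOX2-ON 3. Sox17, a SOXF factor of endoderm, was at 6.82, 7.90 and 16.1 TPM in SOX2-ON, 0.18, 0.64 and 0.40 TPM in CEpiLC and 11.7, 16.6 and 15.0 TPM in SOX2-OFF (log2 fold change 4.72 ± 0.45, adjusted p = 1.87e-06). Dab2, an adaptor of endocytosis, was at 38.4, 53.4 and 124 TPM, 4.66, 5.10 and 4.28 TPM and 108, 149 and 123 TPM (log2 fold change 3.72 ± 0.36, adjusted p = 1.91e-06). In each, SOX2-ON 3 was about level with SOX2-OFF and the other SOX2-ON libraries were lower, all of them above CEpiLC. Col4a1, a basement membrane collagen, was at 246, 293 and 599.8 TPM, 52.5, 44.6 and 52.8 TPM and 519, 697 and 591 TPM (log2 fold change 2.88 ± 0.26, adjusted p = 1.18e-06), and it lies on chromosome 8. Srgn, the proteoglycan serglycin, was at 43.8, 61.1 and 136 TPM, 0.54, 0.27 and 0.23 TPM and 119, 165 and 163 TPM (log2 fold change 7.56 ± 0.59, adjusted p = 3.50e-07). Spink1, a secreted trypsin inhibitor that like Srgn was named by its size of change, was at 56.3, 71.7 and 203 TPM against 0.30, 0.96 and 0.78 TPM, and at 164, 216 and 265 TPM in SOX2-OFF. The summed level of the 23 genes was 1275 to 2918 TPM in SOX2-ON, 632 to 641 TPM in CEpiLC, 2579 to 3117 TPM in SOX2-OFF and 626 to 657 TPM in EpiLC; Ttr and Hnf4a were at 0 in all CEpiLC libraries. How far a share of endoderm-like cells in the SOX2 TetON cultures enters the other differences was not tested.

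Other cell types that the cultures could hold were checked by their markers. Of 9 trophoblast genes tested 6 rose and 2 fell against CEpiLC, 1 rose and 2 fell against SOX2-OFF, 1 fell against CEpiLC without CEpiLC 3, SOX2-ON 1 or SOX2-ON 2, and the list summed to 45.6 to 69.6 TPM in SOX2-ON and 55.1 to 107 TPM in CEpiLC. Esx1, a homeobox gene of extraembryonic ectoderm, was at 6.95, 7.01 and 12.8 TPM against 0.38, 0.28 and 1.11 TPM (log2 fold change 4.08 ± 0.41, adjusted p = 2.73e-06). Phlda2, an imprinted gene of the placenta, was at 8.60, 3.85 and 9.68 TPM against 68.8, 50.1 and 101 TPM (log2 fold change -3.32 ± 0.43, adjusted p = 2.60e-05). Phlda2 alone made up most of the summed trophoblast level in CEpiLC, and the median log2 fold change of the trophoblast list was 2.37. Fibroblast genes, which feeder cells would bring, summed to 24.9 to 47.6 TPM in SOX2-ON and 73.2 to 103 TPM in CEpiLC, and 2 of 10 rose and 2 fell, with 1 that rose without CEpiLC 2 or SOX2-ON 1. Genes of the 2-cell-like state summed to 0.16 to 0.33 TPM in SOX2-ON and 0 to 0.38 TPM in CEpiLC, and none was tested. The 4 Y-linked genes, of an XY line, summed to 85.1 to 94.2 TPM in SOX2-ON and 77.2 to 109 TPM in CEpiLC. Of them 2 rose and 2 fell against CEpiLC, each number being 1 under some alternatives, and none passed against SOX2-OFF.

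Genes that were alike in both SOX2 TetON groups and different from CEpiLC were picked by that pattern, so their values are a description. Usp9y, a Y-linked deubiquitinase, was at 2.02, 2.88 and 2.09 TPM in SOX2-ON, 2.57, 2.59 and 2.13 TPM in SOX2-OFF, 0.02, 0.01 and 0 TPM in CEpiLC and 0.01, 0.01 and 0 TPM in EpiLC. Nostrin, a regulator of nitric oxide synthase, was at 7.30, 8.72 and 19 TPM, 10.5, 13.3 and 14.0 TPM, 0, 0.19 and 0 TPM and 0, 0.06 and 0.09 TPM. On the low side, the long noncoding RNA C330024D21Rik was at 1.29, 0.85 and 1.46 TPM, 0.83, 1.09 and 0.77 TPM, 14.7, 14.5 and 12.6 TPM and 12.7, 15.5 and 12.8 TPM. Actc1, the cardiac actin, was at 2.39, 2.66 and 0.52 TPM, 2.21, 2.48 and 1.83 TPM, 19, 21.2 and 13 TPM and 27.4, 27.2 and 20.6 TPM. For these genes both wild-type groups, with and without CHIR, were on one side and both SOX2 TetON groups on the other. Tmem132c was unlike them in EpiLC, at 0.53, 0.70 and 0.47 TPM, 0.41, 0.57 and 0.57 TPM, 12.2, 3.67 and 6.89 TPM and 0.27, 0.18 and 0.11 TPM, and was high in CEpiLC alone. Xlr3b, an X-linked gene expressed from a family of close copies and therefore uncertain, was at 0.18, 0.38 and 0 TPM, 0.45, 0.13 and 0 TPM, 31.0, 31.0 and 21.8 TPM and 34.7, 32.1 and 23.2 TPM.

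Among 19 imprinted genes 9 rose and 4 fell against CEpiLC, and 9 rose and 1 fell against SOX2-OFF. H19, the maternally expressed noncoding RNA, was at 137, 123 and 184 TPM in SOX2-ON, 131, 86.1 and 33.6 TPM in SOX2-OFF, 1.28, 1.09 and 5.05 TPM in CEpiLC and 2.82, 2.21 and 5.23 TPM in EpiLC (log2 fold change 6.15 ± 0.55, adjusted p = 1.15e-06). Its neighbour Igf2, the paternally expressed growth factor, was at 25.8, 24.5 and 54.5 TPM against 53.0, 39.1 and 62.8 TPM in CEpiLC and did not pass the test (log2 fold change -0.54 ± 0.36, adjusted p = 0.228), but passed without SOX2-ON 3 at -1.0. Cdkn1c, a maternally expressed inhibitor of cell cycle kinases, was at 2.49, 2.14 and 2.94 TPM, 1.43, 1.22 and 1.45 TPM, 25.9, 30.0 and 20.9 TPM and 15.3, 14.0 and 17.2 TPM (log2 fold change -3.37 ± 0.16, adjusted p = 1.23e-08). Grb10, an adaptor that restrains growth factor receptors and also stands in the caudal epiblast list, was at 28.4, 23.4 and 27.2 TPM, 16, 9.51 and 12.3 TPM, 139.7, 139 and 122 TPM and 148, 172 and 144 TPM (log2 fold change -2.39 ± 0.14, adjusted p = 4.53e-08). Mest, a paternally expressed hydrolase of chromosome 6, was at 449, 535 and 591 TPM, 204, 188 and 225 TPM and 109, 95.5 and 133 TPM in SOX2-ON, SOX2-OFF and CEpiLC (log2 fold change 2.17 ± 0.14, adjusted p = 7.01e-08, and from SOX2-OFF 1.29 ± 0.13, adjusted p = 1.42e-05). H19 overlapped between the TetON groups and was above the wild-type groups, and Mest was highest in SOX2-ON. Cdkn1c and Grb10 were low in both TetON groups and lowest in SOX2-OFF. Rian and Meg3, of the Dlk1 locus, did not pass the test against CEpiLC (adjusted p = 0.434 and 0.327).

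**Figure D5:**
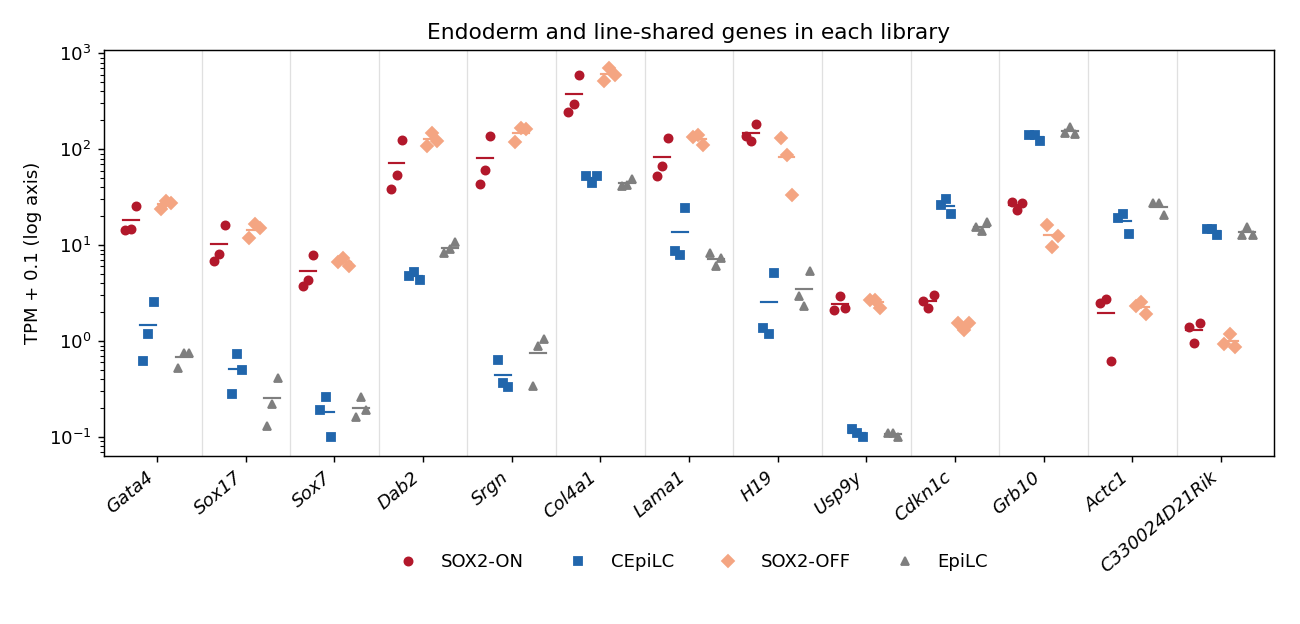
TPM + 0.1 on a log axis for 7 endoderm genes and 6 others; each point is 1 library, each bar the mean of a group of 3. Both SOX2 TetON groups lie above both wild-type groups for Sox17, Srgn, H19 and Usp9y and below them for Cdkn1c, Grb10, Actc1 and C330024D21Rik; SOX2-ON 3 is the highest SOX2-ON library for every endoderm gene shown.

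Of 15 glycolysis genes 12 rose and none fell against CEpiLC, with a median of 0.31, and 12 rose and none fell against SOX2-OFF, with a median of 0.33. Pdk1, the kinase that keeps pyruvate out of the mitochondrion, was at 141, 129 and 131 TPM in SOX2-ON, 26.8, 31.3 and 22.7 TPM in CEpiLC and 33.7, 30.8 and 23.4 TPM in SOX2-OFF (log2 fold change 2.27 ± 0.14, adjusted p = 4.77e-08, and from SOX2-OFF 2.14 ± 0.14, adjusted p = 3.11e-07). The SOX2-ON libraries were close together and far above both groups, which overlapped. Slc2a3, a glucose transporter of chromosome 6, was at 1142, 1154 and 1286 TPM, 394, 236 and 279 TPM and 579, 656 and 545 TPM (log2 fold change 1.94 ± 0.20, adjusted p = 3.30e-06, and from SOX2-OFF 0.96 ± 0.19, adjusted p = 0.00224). Pfkp, a phosphofructokinase, was at 29.6, 26.6 and 30.9 TPM, 14.1, 14.5 and 11.5 TPM and 15.8, 13.8 and 11 TPM (log2 fold change 1.08 ± 0.11, adjusted p = 4.52e-06, and from SOX2-OFF 1.05 ± 0.11, adjusted p = 2.20e-05). Gapdh, also on chromosome 6, changed sign with the chromosome shift removed, from 0.48 ± 0.05 to -0.09 in log2 fold change, and Slc2a3 passed at 1.37. The number that rose against CEpiLC was 8 without SOX2-ON 1, where Gpi1, Pfkl, Pgk1 and Ldha did not pass; Pgk1 did not pass without SOX2-ON 2 or CEpiLC 3 either, nor Pfkl without CEpiLC 3. The other glucose transporter, Slc2a1, did not pass against CEpiLC (adjusted p = 0.979).

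Targets of ATF4, the factor of the amino acid stress response, rose in many cases in both SOX2 TetON groups. Of 12 tested 8 rose and none fell against CEpiLC, 9 rose from CEpiLC in SOX2-OFF, and 3 rose and 1 fell between SOX2-ON and SOX2-OFF. In the last, 1 rose without SOX2-ON 1, SOX2-ON 3, SOX2-OFF 1 or SOX2-OFF 2, and 5 in a fit of the 6 libraries compared. Atf4 was at 431, 390.4 and 421 TPM in SOX2-ON, 164, 154 and 149 TPM in CEpiLC and 345, 322 and 354 TPM in SOX2-OFF (log2 fold change 1.38 ± 0.08, adjusted p = 3.41e-08, and from SOX2-OFF 0.23 ± 0.08, adjusted p = 0.0349). Asns, asparagine synthetase, of chromosome 6, was at 964, 849 and 1114 TPM, 244, 235 and 236 TPM and 710.0, 611 and 607 TPM (log2 fold change 2.00 ± 0.14, adjusted p = 1.21e-07, and from SOX2-OFF 0.55 ± 0.13, adjusted p = 0.007). Both were highest in SOX2-ON, with SOX2-OFF nearer to it than to CEpiLC. The difference of Atf4 from SOX2-OFF did not pass without SOX2-ON 1, SOX2-ON 3, SOX2-OFF 1 or SOX2-OFF 2 (0.19 to 0.24), and Ddit3 (CHOP) did not pass the test against CEpiLC (log2 fold change 0.27 ± 0.15, adjusted p = 0.145).

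Among genes of the cell cycle and Myc family 4 of 13 rose and 5 fell against CEpiLC. Cdkn2a, which codes for p16 and p19ARF, was at 88.0, 73.1 and 88.4 TPM in SOX2-ON, 6.04, 4.92 and 10.1 TPM in CEpiLC and 93.9, 90.7 and 93.8 TPM in SOX2-OFF (log2 fold change 3.62 ± 0.21, adjusted p = 4.47e-08), and did not pass between the TetON groups (adjusted p = 0.426). Mycl was at 44.2, 41.1 and 39.1 TPM, 21.6, 20.2 and 28.0 TPM and 15.8, 17.5 and 19.7 TPM and was highest in SOX2-ON (log2 fold change 0.80 ± 0.13, adjusted p = 2.04e-04, and from SOX2-OFF 1.18 ± 0.13, adjusted p = 3.19e-05). Of the D-type cyclins, Ccnd1 was at 64.1, 62.0 and 48.2 TPM, 97.1, 91.2 and 111 TPM and 91.6, 90.0 and 108 TPM (log2 fold change -0.82 ± 0.11, adjusted p = 5.20e-05, and from SOX2-OFF -0.78 ± 0.11, adjusted p = 2.40e-04). Ccnd3 was at 49.8, 47.0 and 65.6 TPM, 102, 89.1 and 95.3 TPM and 87.5, 94.7 and 95.0 TPM (log2 fold change -0.86 ± 0.11, adjusted p = 2.05e-05, and from SOX2-OFF -0.83 ± 0.11, adjusted p = 9.53e-05). Both cyclins were lower in every SOX2-ON library than in CEpiLC and SOX2-OFF, which lay together.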

How the data were processed

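RNA was taken at 72 h from 12 cultures, 3 in each of 4 groups, and sequenced as single-end, strand-specific mRNA libraries. The authors aligned and counted the reads with STAR 2.5.2a and RSEM 1.3.0 after trimming with cutadapt 1.16 (DESeq2 1.16.1 is also listed), per the submitters' processing notes. They deposited 1 table of RSEM expected counts and TPM values per gene and library. RSEM divides reads shared by near-identical genes by estimate, so such genes are uncertain; TPM values were used for levels only.

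Expected counts were rounded and tested with edgeR 4.0.16 (quasi-likelihood test, TMM scaling, filterByExpr, R 4.3.3) in 1 fit of all 12 libraries without covariates, since they share the estimate of the spread, and p-values were adjusted over all genes tested. The replicates are labelled biological, and a p-value sets the difference between groups against the spread between libraries of a group. The SOX2 TetON line is a picked clone, so no p-value here covers differences between clones. Replicates of a group differed by more than sampling noise (chi-square per degree of freedom 10.5 to 25.7), so none was counted as a copy. On simulated counts edgeR recovered 96% of genes changed by 1 log2 unit and 99% of those changed by 2, over 13732 genes of the same comparison. There 200 genes were changed, each of at least 2 log2 CPM on average, and the others were left unchanged. The shares therefore do not cover weaker genes or a comparison in which many genes change. DESeq2 1.42.0, limma-voom (limma 3.58.1), other scalings and filters, a replicate block, a removed chromosome shift and the loss of each library were tried as alternatives; in the shift removal the median deviation of each chromosome in a library entered the fit as an offset.

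The members and the 31 gene lists (389 different genes, 349 tested) were chosen with earlier results of these data known. Genes outside the lists were named by 3 rules among genes that passed the test, at an average of at least 2 log2 CPM and without overlap of the groups: the 12 largest log2 fold changes from CEpiLC in each direction, the 12 with the largest smaller change from CEpiLC and SOX2-OFF, and the 6 shared by both TetON groups with under 0.5 between them. Motif positions, promoters and coordinates are of GRCm38, from RefSeq, except that the Sox2 stretch and its coordinates are from GENCODE. Some listed or rule-named genes are not reported here.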

Additional observations from a re-analysis of the deposited data

How the results depend on the processing

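The number of genes that passed between SOX2-ON and CEpiLC, 8020 as reported, stayed within 1.5 times that count under every alternative, from 6104 at an adjusted p of at most 0.01 to 8390 with the replicate block (6971 without CEpiLC 3 and SOX2-ON 3, a setting chosen after the data were seen); with 1 library left out it was 7232 to 7583. Against SOX2-OFF it was 4091, 3054 to 3923 with 1 library left out, 4625 with the replicate block and 2437 at an adjusted p of at most 0.01. Same-numbered libraries of SOX2-ON and CEpiLC had deviations that correlated at 0.058, 0.185 and 0.155, so the numbers were not taken as pairs. With the block 6 core pluripotency genes rose against SOX2-OFF in place of 3, and 14 endoderm genes fell in place of 9. Among the list and named genes the sign changed 7 times, all against CEpiLC. With the chromosome shift removed Stat3 went from -0.45 to 0.095, Junb from 0.57 to -0.030, Rara from -0.46 to 0.084, Gapdh from 0.48 to -0.087, Tet3 from 0.094 to -0.48 and Ccnd2 from 0.12 to -0.45, and without CEpiLC 2 Fgf5 went from -0.22 to 0.56 (-0.65 without CEpiLC 1), all in log2 fold change. With the shift removed 6 further genes of 377 did not pass and 3 passed anew; without CEpiLC 3 22 did not pass and 5 passed anew; the causes were not tested. Genes under about 1 TPM rest on few counts in CEpiLC 3, the shallowest library, and differences of such genes may not be detectable at this depth.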

Other observations

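Genes of the LIF and STAT3 pathway, which sustains naive ESCs in culture but was not supplied in these media, are few here. Of 6 genes 3 rose and 1 fell against CEpiLC, where 56.5% of all genes passed the test, and none rose and 3 fell against SOX2-OFF, of which 1 fell without SOX2-ON 1, SOX2-ON 2 or SOX2-OFF 1. The gene that fell against CEpiLC was Stat3, on chromosome 11, and 1 of those that rose was Junb, on chromosome 8. With the chromosome shift removed neither passed (log2 fold change from -0.45 to 0.095 and from 0.57 to -0.030), and 2 rose and none fell. Lifr, the LIF receptor, was at 7.22, 8.52 and 12.7 TPM in SOX2-ON, 3.35, 3.83 and 5.11 TPM in CEpiLC and 8.67, 8.37 and 9.45 TPM in SOX2-OFF, with a log2 fold change from CEpiLC of 1.29 ± 0.22 (edgeR, adjusted p = 2.34e-04). Every SOX2-ON library was above CEpiLC and the group overlapped SOX2-OFF. Socs3, the feedback inhibitor that STAT3 induces, was at 7.98, 7.03 and 8.03 TPM in SOX2-ON and 9.42, 9.88 and 5.68 TPM in CEpiLC, and did not pass the test (edgeR, adjusted p = 0.498).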
